A study of Mus musculus with 27 samples.

Results

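The genes described here are the mitogen-activated protein (MAP) kinases and the kinases of the same naming families that act above and directly below them. Members were all probe sets annotated to a single symbol made of Mapk, Map2k, Map3k, Map4k or Mapkapk and digits only, with 1 probe set per symbol, chosen as that with the highest mean signal on the 27 arrays. This gave 41 of the 19938 genes measured: 3 Map4k, 18 Map3k, 6 Map2k, 11 Mapk and 3 Mapkapk genes. The rule used only symbols and mean signal, and it was set with earlier results of these data known. Genes of these families without a probe set of a single symbol, among them Map2k7, the gene of MKK7, were not analysed here.

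The cells were TAMH, a line of mouse hepatocytes from mice with a transgene for transforming growth factor alpha, in serum-free medium with dexamethasone, nicotinamide, insulin, transferrin and selenium. The groups were cultures given 2 mM acetaminophen (APAP), cultures given 2 mM of the regioisomer AMAP, and control cultures, each sampled at 2, 6 and 24 h after dosing at confluence. APAP carries its hydroxyl group para to the acetamide group and AMAP carries it meta. Each of the 9 groups had 3 arrays, numbered 30, 31 and 32 in the labels, which do not say whether these came from separate cultures, so p-values measure only the spread between these samples, which may be technical. All groups are 1 cell line, so no group gives variation between animals. The title of the series asks how APAP regulates MAP kinases differentially, and the comparisons below give the mRNA side of that question.

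MAP kinase cascades pass a signal down tiers of protein kinases, each of which phosphorylates the next. A Map4k or a small GTPase activates a Map3k, the Map3k activates a Map2k, the Map2k activates a MAP kinase (ERK, JNK, p38 or ERK5), and the p38 kinases activate MAPKAP kinases such as MK2 and MK3. In mouse liver, APAP is oxidised to a reactive quinone imine that consumes glutathione, and sustained JNK activation is a known step of the injury that follows, while AMAP is known as the less hepatotoxic isomer in mice. Kinase activity is set by phosphorylation, which these arrays do not measure. All values below are mRNA levels.

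Values are RMA signals on a log2 scale, and a level is comparable between samples of a gene but not between genes. The 27 arrays had medians of 6.92 to 7.07, and replicates correlated at r = 0.992 to 0.997. All 8 measured hepatocyte markers, Alb and Hnf4a among them, lay above the array median on all 27 arrays. The 6 endothelial markers lay below it on every array, as did 5 of 6 macrophage and leukocyte markers (all but Cd68) and Acta2 and Pdgfrb of 6 fibroblast and stellate markers. Of 4 biliary markers, Krt19, Krt7 and Sox9 lay above it and Epcam below. Among the members, Map3k6, Map3k9, Map3k15, Map3k19, Map3k21, Mapk4, Mapk10 and Mapk13 were below the array median on all 27 arrays, Mapkapk3 on 25 and Mapk15 on 24. Map3k13 was below it on 9 arrays, Map4k1 on 7 and Mapk12 on 4. The other 28 members were above it on every array.

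Of the 41 members, 8 passed the test in at least 1 of the 9 comparisons between treatments, beside 12.5% of all genes, and 33 passed in none. The members with the largest changes were Map2k6 and Mapkapk3. Map2k6, the gene of the p38-activating kinase MKK6, was 1.93-fold lower in APAP than in control cultures at 24 h, and Mapkapk3, the gene of the p38 substrate kinase MK3, was 1.40-fold higher. Neither gene passed the test in AMAP cultures against control cultures at any time. A gene passed when its p-value from limma, adjusted by the Benjamini-Hochberg method over all 19938 genes, was under 0.05. Differences are first-named minus second-named group means on the log2 scale. In comparisons of treated with control cultures, rose and fell mean higher and lower than the controls of the same time, not a change over time.

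Between APAP and control cultures, no member passed the test at 2 h, where 0.682% of all genes did. At that time 8 members had an unadjusted limma p under 0.05, beside 1846 of all 19938 genes. At 6 h, 1 member rose and 1 fell, beside 2.5% of all genes that changed, 1.05% higher and 1.44% lower. At 24 h, 1 rose and 4 fell, beside 9.33% of all genes, 3.36% higher and 5.97% lower. The share of members that changed at 24 h, 5 of 41, was close to that of all genes. The median difference of the members in these comparisons was -0.02, 0.03 and 0.07 at 2, 6 and 24 h, beside 0.01, 0.00 and 0.02 for all genes. Between AMAP and control cultures, no member passed at 2 h (0.181% of all genes) or at 6 h (0.456%). An unadjusted p under 0.05 was seen for 4 members at 2 h and 5 at 6 h, beside 1356 and 1889 of all genes. At 24 h, 1 member fell (0.727%, 0.416% lower). Between APAP and AMAP cultures, no member passed at 2 h (0.261%), where 1 had an unadjusted p under 0.05, beside 1860 of all genes. With APAP, 1 was higher at 6 h (0.707%, 0.476% higher). At 24 h, 3 were higher and 3 lower (4.65%, 1.87% higher and 2.78% lower). These comparisons share samples, each APAP and AMAP group with the other and with the controls of its time, so their counts are not independent.

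**Figure D1:**
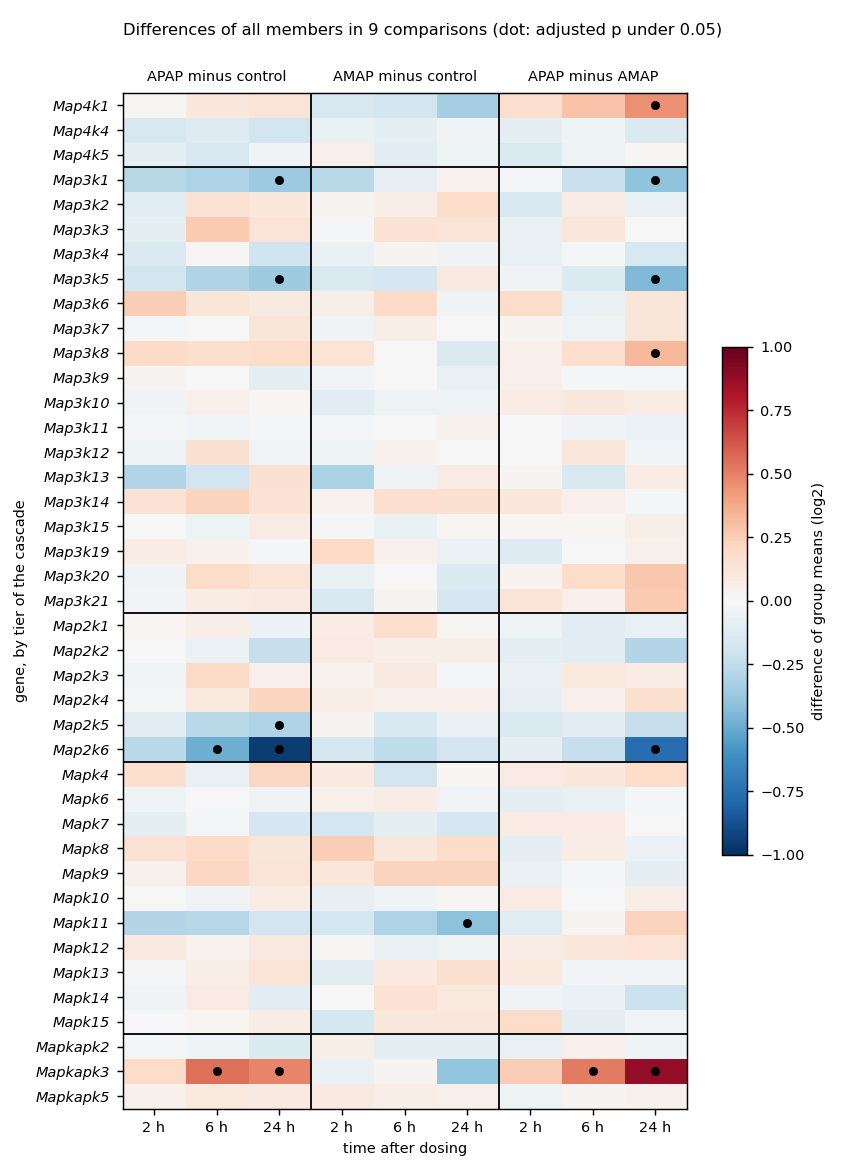
The colour of each cell is the difference of group means (log2, red higher and blue lower in the first-named group) of 1 member in 1 comparison. Rows are the 41 members from Map4k at the top to Mapkapk at the bottom, columns are 2, 6 and 24 h for APAP minus control, AMAP minus control and APAP minus AMAP, and a dot marks an adjusted p under 0.05. The strongest colours are Map2k6 (-0.95 for APAP minus control at 24 h) and Mapkapk3 (0.88 for APAP minus AMAP at 24 h).

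The median 95% interval of a member reached 0.18 to either side of a difference, from 0.14 for Mapk6 to 0.25 for Mapkapk3 and 0.26 for Map2k2. In the comparison of APAP with control cultures at 24 h, 37 of the 41 intervals lay within -0.5 to 0.5, and 40 lay within -1 to 1. For AMAP against control cultures at 24 h, 38 lay within -0.5 to 0.5. Complete separation of the groups was common in these data. All 3 APAP values lay above or all below the 3 control values for 17 of 41 members at 24 h, beside 27% of all genes, for 13 at 6 h beside 16.3%, and for 12 at 2 h beside 17.6%. The corresponding counts for AMAP against control cultures were 7 members at 2 h (11.5% of all genes), 6 at 6 h (12.4%) and 12 at 24 h (19.4%). For APAP against AMAP cultures they were 6 at 2 h (14.4%), 3 at 6 h (10.4%) and 19 at 24 h (22.4%).

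Map4k kinases stand at the top of the cascades and act mainly on Map3k kinases. None of the 3 passed the test between treated and control cultures, with differences from -0.33 to 0.13 over the comparisons at 24 h. Map4k1 encodes HPK1, a kinase studied mostly in blood cells. Its levels at 24 h were 7.21, 7.14 and 7.33 in APAP cultures, 6.77, 6.84 and 6.70 in AMAP cultures and 7.03, 7.06 and 7.21 in control cultures. Every APAP array was above every AMAP array, the APAP and control ranges overlapped, and every AMAP array was below every control array. APAP cultures were 1.37-fold higher than AMAP cultures (difference 0.46 ± 0.09 SE, adjusted p = 0.00217), and the gene passed that test without any 1 of the 6 arrays. It did not pass without all arrays of number 30 or of number 32 (limma adjusted p up to 0.0846). The difference of AMAP from control cultures was -0.33 (adjusted p = 0.0759). With the replicate number as a block it passed (adjusted p = 0.0423), as it did after quantile normalization, with a filter on dim genes and with array weights (adjusted p = 0.0284 to 0.0497). That of APAP from control cultures was 0.13 (adjusted p = 0.428). Map4k4, a kinase of the JNK branch with high signal here, differed from control cultures by -0.16, -0.13 and -0.18 at 2, 6 and 24 h of APAP and by -0.07, -0.09 and -0.04 with AMAP, and passed no test.

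Map3k kinases integrate stress and growth signals. Of 18, 2 fell in APAP against control cultures at 24 h and none rose, and 16 did not pass. No Map3k passed at 2 or 6 h of APAP, nor at any time of AMAP against control cultures. Map3k5 encodes ASK1, which is held inactive by reduced thioredoxin and activates the JNK and p38 branches under oxidative stress. Its levels at 24 h were 8.32, 8.45 and 8.12 in APAP cultures, 8.74, 8.83 and 8.64 in AMAP cultures and 8.69, 8.69 and 8.55 in control cultures. All 3 APAP arrays lay below all AMAP and control arrays, and the AMAP and control ranges overlapped. Map3k5 fell by 0.35 on the log2 scale with APAP (SE 0.09, adjusted p = 0.0103), which is 1.28-fold lower. Its difference at 6 h was -0.30 (adjusted p = 0.0681, and 0.0448 with a filter on dim genes and 0.0135 with array weights) and at 2 h -0.18 (adjusted p = 0.517). The test against control cultures at 24 h was not passed without APAP array 32 or control array 31, with adjusted p = 0.0523 and 0.0663 as the lowest and highest of these. Against AMAP cultures, Map3k5 was 1.36-fold lower at 24 h (-0.44 ± 0.09 SE, adjusted p = 0.00257), and this held without any 1 of the 6 arrays. Both 24 h calls were lost without all arrays of number 30 and in a fit of the compared arrays alone. That against control cultures was lost without number 31 too. The limma adjusted p reached 0.177 against control and 0.114 against AMAP cultures.

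Map3k1 encodes MEKK1, an upstream kinase of the JNK branch that also carries a ubiquitin ligase domain. Its levels at 24 h were 9.08, 9.20 and 8.91 in APAP cultures, 9.49, 9.66 and 9.25 in AMAP cultures and 9.55, 9.44 and 9.30 in control cultures. The APAP range lay below the AMAP and control ranges, and the AMAP and control ranges overlapped. Map3k1 was 1.29-fold lower with APAP than in control cultures (-0.37 ± 0.11 SE, adjusted p = 0.0307) and 1.32-fold lower than in AMAP cultures (-0.40 ± 0.11 SE, adjusted p = 0.0304). At 2 h it differed from control cultures by -0.28 with APAP (adjusted p = 0.368) and by -0.27 with AMAP (adjusted p = 0.600). The call against control cultures was lost without APAP array 30 or 32 or control array 30 or 31 (adjusted p = 0.0655 to 0.143), and that against AMAP cultures without APAP array 30 or 32 or AMAP array 30 or 31 (adjusted p = 0.0675 to 0.160). After quantile normalization the adjusted p was 0.0662 against control and 0.0646 against AMAP cultures.

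Map3k8 encodes TPL2 (COT), which activates MEK1 and MEK2 in inflammatory signalling. Its levels at 24 h were 8.08, 8.11 and 7.85 in APAP cultures, 7.73, 7.83 and 7.51 in AMAP cultures and 7.91, 7.78 and 7.81 in control cultures. The APAP arrays lay above the AMAP arrays, while APAP and AMAP each overlapped the controls. APAP cultures were 1.25-fold higher than AMAP cultures (0.33 ± 0.09 SE, adjusted p = 0.0305), which was lost without APAP array 30 or 31 or AMAP array 30 or 32 (adjusted p = 0.0664 to 0.182) and with arrays centred on their medians (adjusted p = 0.0812). The differences from control cultures were 0.18 with APAP (adjusted p = 0.217) and -0.14 with AMAP (adjusted p = 0.588).

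The other 15 Map3k genes passed no treatment test. Over all 18, the differences from control cultures at 24 h ran from -0.37 to 0.18 with APAP and from -0.17 to 0.18 with AMAP. Map3k12, the gene of DLK, had another probe set with differences of -0.33 to 0.42 over all the comparisons, and no adjusted p there was below 0.199. Map3k6 (ASK2, a relative of ASK1) had the highest member difference between APAP and control cultures at 2 h, 0.25 (adjusted p = 0.253). Map3k13, the gene of LZK, a JNK-branch kinase with a leucine zipper, had the lowest member difference between AMAP and control cultures at 2 h. Its levels at 2 h were 6.74, 7.05 and 6.76 with APAP, 6.73, 6.83 and 6.91 with AMAP and 7.19, 7.17 and 7.06 in control cultures, so that every treated array was below every control array. The differences were -0.29 with APAP (adjusted p = 0.234) and -0.32 with AMAP (adjusted p = 0.373). Map3k7, the gene of TAK1, which relays cytokine signals to JNK, p38 and NF-kB, differed from control cultures by -0.01, 0.01 and 0.12 at 2, 6 and 24 h of APAP and by -0.04, 0.06 and 0.00 with AMAP. Map3k2 (MEKK2, upstream of the ERK5 branch) had the lowest member difference between APAP and AMAP cultures at 2 h, -0.15 (adjusted p = 0.616).

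Map2k kinases are the dual-specificity kinases that activate the MAP kinases, and each serves few targets. Of 6, 1 fell at 6 h and 2 at 24 h of APAP against control cultures. Map2k6 encodes MKK6, which phosphorylates p38. A promoter window is shown because it is the member that changed most. RefSeq gives this gene 3 windows, each from 250 bases before to 50 after an annotated start, and the one printed is the only 1 of the 3 with a match to a searched motif. It lies at chr11:110398852-110399151, plus strand, from RefSeq on GRCm38.p6, with capitals for a match to the AP-1 motif TGANTCA, searched on both strands, 232 bases before the start.
Map2k6: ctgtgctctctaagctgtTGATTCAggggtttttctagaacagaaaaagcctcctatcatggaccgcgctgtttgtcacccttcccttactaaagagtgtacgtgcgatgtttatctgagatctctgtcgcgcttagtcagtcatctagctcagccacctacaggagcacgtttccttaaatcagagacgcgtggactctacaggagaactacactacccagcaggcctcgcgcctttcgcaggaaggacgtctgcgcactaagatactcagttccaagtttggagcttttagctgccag
This motif is in 7.81% of the 32851 windows of all genes and in 2 of the 46 windows of members (Map2k6 and Map3k10), so a match is a description of the sequence and not a site.

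Map2k6 had levels of 9.04, 8.94 and 8.97 in APAP cultures at 2 h, 8.99, 9.24 and 8.98 in AMAP cultures and 9.24, 9.31 and 9.21 in control cultures. At 6 h it had 8.82, 8.79 and 8.60 with APAP, 9.17, 8.97 and 8.77 with AMAP and 9.36, 9.24 and 9.08 in control cultures. At 24 h it had 8.55, 8.43 and 8.29 with APAP, 9.26, 9.24 and 9.05 with AMAP and 9.48, 9.36 and 9.27 in control cultures. The APAP arrays were below the control arrays at all 3 times, and the gap was widest at 24 h. AMAP arrays overlapped the controls at 2 and 6 h and lay just below them at 24 h. Against control cultures, Map2k6 differed by -0.27 at 2 h of APAP (adjusted p = 0.342), fell by 0.49 at 6 h (SE 0.10, adjusted p = 0.0069) and fell by 0.95 at 24 h (SE 0.10, 95% interval -1.16 to -0.74, adjusted p = 1.24e-06). With AMAP the differences were -0.18, -0.26 and -0.19 at 2, 6 and 24 h (adjusted p = 0.809, 0.386 and 0.513). At 24 h Map2k6 was 1.69-fold lower in APAP than in AMAP cultures (-0.76 ± 0.10 SE, 95% interval -0.97 to -0.55, adjusted p = 2.77e-05).

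Both 24 h calls of Map2k6 held without any 1 of the arrays compared. The 6 h call was lost without APAP array 32 or control array 30, with adjusted p = 0.0532 and 0.0567. It was also lost without all arrays of number 30 or of number 31 (limma adjusted p up to 0.144). The change of the APAP difference between 2 and 24 h was itself tested: it was -0.68 ± 0.14 (SE, adjusted p = 0.0325), and Map2k6 was the only member to pass that test, beside 0.356% of all genes, 0.186% in the same direction. That call was lost without any of 10 of the 12 arrays, with adjusted p = 0.0576 to 0.0881, the exceptions being APAP array 30 and control array 32 of 24 h. It was also lost without each of the numbers 30, 31 and 32 (limma adjusted p up to 0.373). With AMAP the same change was -0.01 (adjusted p = 0.999), and no gene passed (0%), with 937 genes at an unadjusted p under 0.05.

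Map2k5 encodes MEK5, the activator of ERK5. Its levels at 24 h were 9.34, 9.16 and 9.03 in APAP cultures, 9.41, 9.41 and 9.40 in AMAP cultures and 9.51, 9.49 and 9.44 in control cultures. The APAP arrays lay below the AMAP arrays, and these lay below the control arrays. Map2k5 was 1.23-fold lower with APAP than in control cultures (-0.30 ± 0.09 SE, adjusted p = 0.0271), a call lost without any of 5 of the 6 arrays, all but APAP array 30 (adjusted p = 0.0518 to 0.135), and after quantile normalization (adjusted p = 0.0535). Its difference from AMAP cultures was -0.23 (adjusted p = 0.133), and Mapk7, the gene of its target ERK5, differed from control cultures by -0.17 at 24 h with either compound (adjusted p = 0.241 with APAP and 0.472 with AMAP).

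The other 4 Map2k genes passed no treatment test. Map2k3 encodes MKK3, the p38 activator closest to MKK6. At 24 h it had 9.55, 9.47 and 9.57 with APAP, 9.42, 9.36 and 9.58 with AMAP and 9.44, 9.46 and 9.53 in control cultures, with overlapping ranges and a difference of 0.05 between APAP and control cultures (95% interval -0.14 to 0.25). Map2k4, the gene of MKK4, which serves JNK and p38, differed from control cultures by 0.21 at 24 h of APAP (adjusted p = 0.156) and by 0.05 with AMAP (adjusted p = 0.903). After quantile normalization it passed with APAP at 24 h (0.28, adjusted p = 0.0320). Map2k1 and Map2k2, the genes of the ERK activators MEK1 and MEK2, differed by -0.06 and -0.23 with APAP at 24 h (adjusted p = 0.793 and 0.286).

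**Figure D2:**
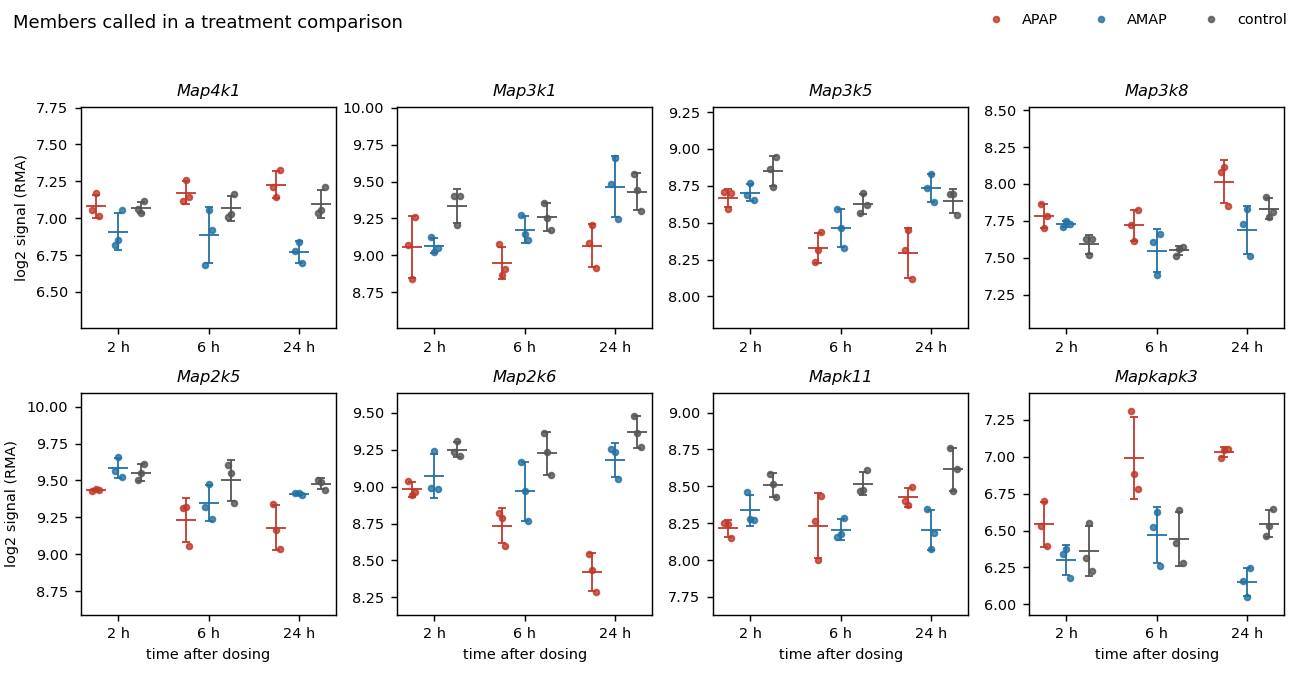
Each panel shows 1 of the 8 members that passed at least 1 treatment comparison, with log2 signal on the y axis over a span of 1.5 and time after dosing on the x axis. Points are arrays, and bars are the mean and SD of 3 arrays, with APAP, AMAP and control from left to right within each time. At 24 h the APAP arrays of Map2k6 (8.29 to 8.55) lie below all others and those of Mapkapk3 (6.99 to 7.06) above all others.

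MAP kinases are the tier that phosphorylates transcription factors and other substrates. None of the 11 passed the test between APAP and control cultures or between APAP and AMAP cultures at any time, and 1 fell with AMAP at 24 h. At 24 h the differences from control cultures ran from -0.19 to 0.20 with APAP and from -0.41 to 0.22 with AMAP. The gene that passed was Mapk11, which encodes p38 beta. Its levels at 24 h were 8.40, 8.38 and 8.50 in APAP cultures, 8.35, 8.08 and 8.19 in AMAP cultures and 8.76, 8.47 and 8.61 in control cultures. The AMAP range lay below the control range and just below the APAP range, and the APAP and control ranges overlapped. Mapk11 was 1.33-fold lower with AMAP than in control cultures (-0.41 ± 0.10 SE, adjusted p = 0.0386), a call lost without any of 5 of the 6 arrays, all but AMAP array 30 (adjusted p = 0.0538 to 0.227).

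The difference of Mapk11 from control cultures was -0.17 at 2 h (adjusted p = 0.802) and -0.31 at 6 h (adjusted p = 0.198) of AMAP, and -0.29, -0.28 and -0.19 at 2, 6 and 24 h of APAP (adjusted p = 0.221, 0.139 and 0.245). APAP and AMAP cultures differed by 0.22 at 24 h, with a 95% interval of 0.02 to 0.42 and an adjusted p of 0.204, so the call with AMAP alone is not shown to be particular to AMAP. Mapk12, the gene of p38 gamma and the neighbour of Mapk11 in the RefSeq gene order, differed from control cultures by -0.05 at 24 h of AMAP (adjusted p = 0.906) and by 0.09 at 24 h of APAP.

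Mapk14, the gene of p38 alpha and the main p38 of most cells, had 9.34, 9.37 and 9.29 at 24 h of APAP, 9.46, 9.64 and 9.54 with AMAP and 9.46, 9.49 and 9.38 in control cultures. The APAP arrays lay below the others, but neither difference passed: -0.12 from control cultures (95% interval -0.30 to 0.06, adjusted p = 0.479) and -0.21 from AMAP cultures (-0.39 to -0.03, adjusted p = 0.176). Mapk8 encodes JNK1. It had 9.49, 9.43 and 9.55 at 2 h of APAP, 9.64, 9.61 and 9.52 with AMAP and 9.42, 9.29 and 9.33 in control cultures, so that every treated array was above every control array. The differences from control cultures were 0.15, 0.19 and 0.12 at 2, 6 and 24 h of APAP (adjusted p = 0.641, 0.337 and 0.432) and 0.25, 0.12 and 0.18 with AMAP (adjusted p = 0.455, 0.730 and 0.407). Mapk8 with AMAP at 2 h was the highest member difference in its comparison.

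Mapk9, the gene of JNK2, was the highest member with AMAP at 6 and 24 h. At 24 h it had 9.44, 9.48 and 9.46 with APAP, 9.62, 9.52 and 9.51 with AMAP and 9.42, 9.34 and 9.23 in control cultures. The AMAP arrays lay highest, the APAP arrays next and the control arrays lowest, with no overlap. The differences from control cultures were 0.04, 0.20 and 0.13 at 2, 6 and 24 h of APAP (adjusted p = 0.934, 0.248 and 0.371) and 0.11, 0.22 and 0.22 with AMAP (adjusted p = 0.905, 0.308 and 0.253). Between APAP and AMAP cultures at 24 h, the intervals were -0.23 to 0.11 for Mapk8 and -0.25 to 0.08 for Mapk9. Mapk10, the gene of JNK3, which is known mainly from neurons, was below the array median throughout, and its other probe set had differences of -0.13 to 0.21 over all the comparisons, with no adjusted p below 0.325.

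**Figure D3:**
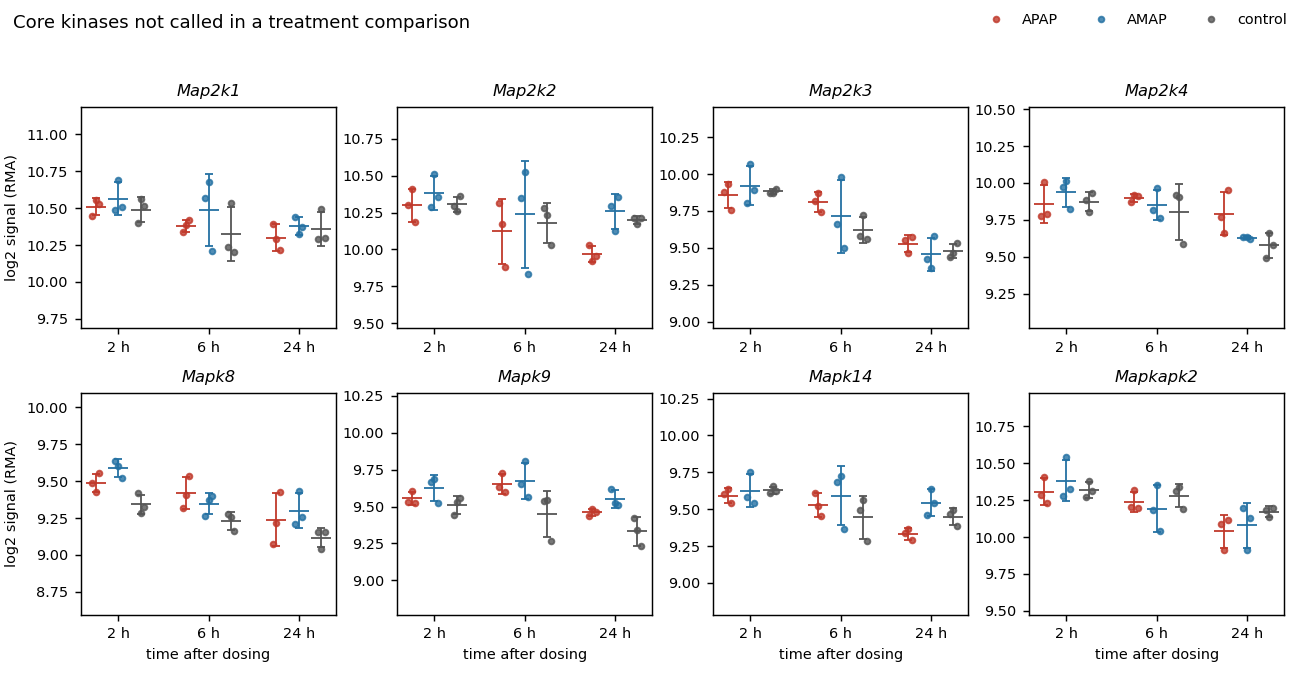
Each panel shows a core kinase gene that passed no treatment comparison: Map2k1, Map2k2, Map2k3, Map2k4, Mapk8, Mapk9, Mapk14 and Mapkapk2. The y axis is log2 signal over a span of 1.5, the x axis time after dosing, points are arrays and bars are the mean and SD of 3 arrays, with APAP, AMAP and control from left to right. Map2k3 lies lower at 24 h than at 2 h in every treatment (9.48 against 9.88 in control cultures).

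MAPKAP kinases are activated by p38 and carry its signal to small heat shock proteins and to mRNA stability. Mapkapk3 encodes MK3, and a promoter window is shown beside that of Map2k6 because it moved most in the other direction. The one printed is the first of 2 and lies at chr9:107289828-107290127, minus strand, from RefSeq on GRCm38.p6, 250 bases before to 50 after the start. Neither window holds a match to TGANTCA (AP-1), TGACGTC (CRE), CGGAAGT (ETS) or TGATGCA (C/EBP-ATF) on either strand, which says only that these letters are not there.
Mapkapk3: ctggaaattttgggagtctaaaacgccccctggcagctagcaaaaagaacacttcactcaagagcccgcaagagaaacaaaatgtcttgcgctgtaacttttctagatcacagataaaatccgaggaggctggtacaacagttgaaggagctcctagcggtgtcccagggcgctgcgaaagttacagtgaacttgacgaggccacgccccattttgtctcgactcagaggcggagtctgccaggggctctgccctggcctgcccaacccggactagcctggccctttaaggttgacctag
Of the 8 members that changed, 7 had windows to search, 11 in all (all but Map3k8). Among these 7, only Map2k6 had a match to any of the 4 motifs. The CRE, ETS and C/EBP-ATF motifs were in 3.21%, 6.42% and 3.15% of all windows.

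Mapkapk3 had levels of 6.53, 6.70 and 6.40 in APAP cultures at 2 h, 6.34, 6.37 and 6.18 in AMAP cultures and 6.31, 6.55 and 6.22 in control cultures. At 6 h it had 7.31, 6.88 and 6.78 with APAP, 6.53, 6.63 and 6.26 with AMAP and 6.42, 6.64 and 6.28 in control cultures. At 24 h it had 6.99, 7.05 and 7.06 with APAP, 6.16, 6.05 and 6.24 with AMAP and 6.46, 6.53 and 6.65 in control cultures. The APAP arrays were above the AMAP arrays at all 3 times and above the control arrays at 6 and 24 h. AMAP arrays overlapped the controls at 2 and 6 h and lay below them at 24 h. Mapkapk3 was below the array median on 25 of the 27 arrays, so these are differences at low signal.

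Mapkapk3 did not pass at 2 h of APAP (0.18, adjusted p = 0.715), rose by 0.55 at 6 h (SE 0.12, adjusted p = 0.0113, 1.46-fold) and by 0.48 at 24 h (SE 0.12, adjusted p = 0.0114). Against AMAP cultures it was higher by 0.52 at 6 h (adjusted p = 0.0376) and by 0.88 at 24 h (SE 0.12, 95% interval 0.63 to 1.13, adjusted p = 3.93e-05), which is 1.84-fold. The differences of AMAP from control cultures were -0.06, 0.03 and -0.40 at 2, 6 and 24 h (adjusted p = 0.995, 0.967 and 0.135). The call against AMAP at 24 h held without any 1 of the 6 arrays. The call against control at 6 h was lost without APAP array 30 or control array 32 (adjusted p = 0.110 and 0.0779 as highest and lowest), that at 24 h without control array 30 (adjusted p = 0.0550), and that against AMAP at 6 h without APAP array 30 or 31 or AMAP array 30 or 32 (adjusted p = 0.0565 to 0.345). Both calls against control were lost without all arrays of number 30, and that at 24 h also without number 31. That at 6 h was lost in a fit of the compared arrays alone too. In these fits the limma adjusted p reached 0.541 at 6 h and 0.140 at 24 h. The call against AMAP at 6 h was lost without each of the numbers and with the compared arrays alone (limma adjusted p up to 0.9996).

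Mapkapk2 encodes MK2, the closest relative of MK3. At 24 h it had 10.09, 9.91 and 10.12 with APAP, 10.20, 9.91 and 10.13 with AMAP and 10.19, 10.13 and 10.20 in control cultures. The treated ranges overlapped each other, every APAP array lay below every control array, and the AMAP and control ranges overlapped. The difference of APAP from control cultures was -0.14 (95% interval -0.32 to 0.05, adjusted p = 0.412). Mapkapk5, the gene of PRAK, differed from control cultures by 0.04, 0.10 and 0.09 at 2, 6 and 24 h of APAP and by 0.09, 0.07 and 0.05 with AMAP, and passed no test.

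The compounds were compared at the same dose and times in 3 pairs of groups. At 24 h, Map4k1, Map3k8 and Mapkapk3 were higher and Map3k1, Map3k5 and Map2k6 lower with APAP than with AMAP. For 34 of the 41 members the 95% interval of the difference between the isomers at 24 h lay within -0.5 to 0.5. At 2 h this was so for all 41 members, the widest difference being 0.24 for Mapkapk3 (adjusted p = 0.545). At 6 h it was so for 40 members. The lowest member difference at 6 h was that of Map2k6 (-0.23, adjusted p = 0.577). An adjusted p above 0.05 does not show that the isomers act alike.

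**Figure D4:**
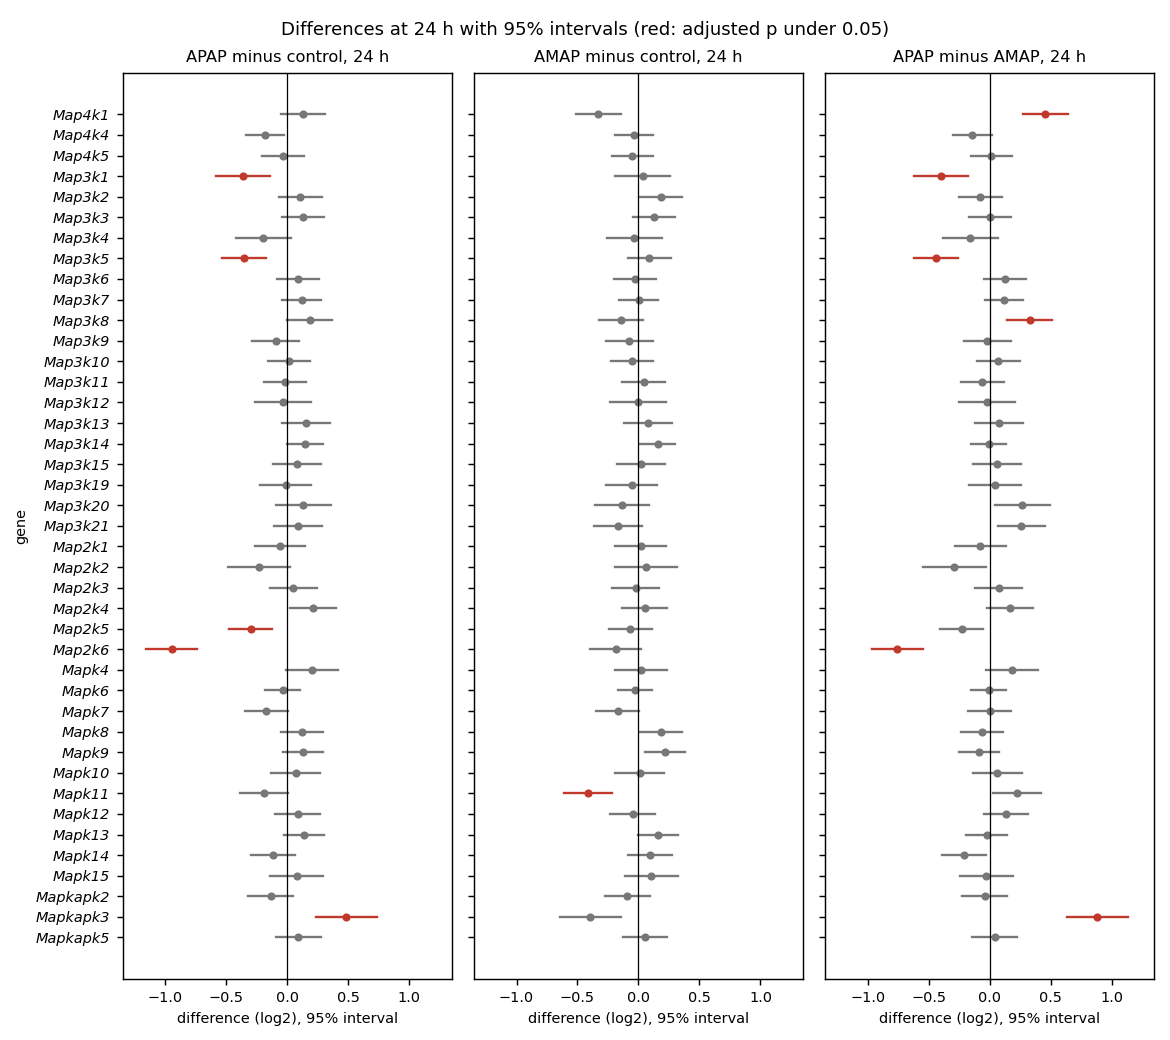
Points are differences of group means at 24 h (log2, x axis) and bars their 95% intervals, for the 41 members from Map4k at the top to Mapkapk at the bottom, in panels for APAP minus control, AMAP minus control and APAP minus AMAP. Red marks an adjusted p under 0.05: 5 members in the left panel, 1 (Mapk11) in the middle and 6 in the right.

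With time in culture and no compound, 1 member passed the test. In control cultures, Map2k3 had 9.44, 9.46 and 9.53 at 24 h, against 9.87, 9.87 and 9.90 at 2 h. It fell by 0.40 (SE 0.09, adjusted p = 0.0316), the only member to pass, beside 1.14% of all genes, 0.627% lower, and this call was lost without any 1 of the 6 arrays (adjusted p = 0.0639 to 0.160). The median difference of the members was -0.07, beside 0.01 for all genes, and 15 of 41 members did not overlap between 24 and 2 h, beside 24.1% of all genes.

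The same comparison within the treated cultures was added after the data were seen. In APAP cultures at 24 h against 2 h, 9 members passed, 2 higher and 7 lower, beside 14.9% of all genes. Map3k13 (0.42, adjusted p = 0.00403) and Mapkapk3 (0.49, adjusted p = 0.0067) were higher. Map3k5 (-0.37), Map2k3 (-0.33), Map2k5 (-0.26), Map2k6 (-0.56), Mapk8 (-0.25), Mapk14 (-0.26) and Mapkapk2 (-0.27) were lower, with adjusted p = 4.76e-04 for Map2k6 and up to 0.0447 for the rest. Without the arrays of number 30, 1 of the 9 passed, Map2k6. In AMAP cultures, 7 passed, beside 9.51% of all genes: Map3k1 (0.40) and Map3k13 (0.37) were higher, and Map2k3 (-0.47), Map2k4 (-0.31), Mapk6 (-0.28), Mapk8 (-0.29) and Mapkapk2 (-0.30) lower. Mapk6 encodes ERK3, an atypical MAP kinase. Without number 30, and likewise without number 31, none of the 7 passed. Control cultures also fell over this time in Map3k5 (-0.20), Map2k3 (-0.40), Map2k4 (-0.29) and Mapk6 (-0.19). Mapk8 (-0.22), Mapk14 (-0.18), Mapkapk2 (-0.15) and Map2k5 (-0.08) were lower there as well. Map3k1 differed there by 0.10, Map3k13 by -0.03, Map2k6 by 0.12 and Mapkapk3 by 0.19. Of these only Map2k3 passed, so a call in treated cultures alone does not show a change particular to them. Between 6 and 2 h no member passed in APAP (0.632% of all genes), AMAP (1.54%) or control cultures (0.707%).

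Genes around the family, from 4 lists, gave the setting of these values. Beside their counts, the shares of all genes that passed were 0.682%, 2.5% and 9.33% at 2, 6 and 24 h of APAP against control cultures. They were 0.181%, 0.456% and 0.727% for AMAP against control cultures, and 0.261%, 0.707% and 4.65% for APAP against AMAP cultures. Of 17 measured kinases of the same cascades with other names, none passed at 2 h of APAP, 2 rose at 6 h and 2 at 24 h, and none fell. With AMAP against control cultures 2 rose at 6 h, and none passed at 2 or 24 h. Rps6ka5, the gene of MSK1, which is activated by ERK and p38, was higher than in control cultures by 0.60 with APAP and by 0.46 with AMAP at 6 h (adjusted p = 1.55e-04 and 0.0116). Its mean level fell between 2 and 6 h from 6.91 to 6.79 with APAP, from 7.04 to 6.64 with AMAP and from 6.72 to 6.19 in control cultures. These are low signals, near or below the array medians. Mknk2, the gene of MNK2, which phosphorylates the translation factor eIF4E, rose by 0.42 with APAP and by 0.43 with AMAP at 6 h, and by 0.52 with APAP at 24 h (adjusted p = 3.18e-04). Taok2, a Map3k by function, rose by 0.30 with APAP at 24 h (adjusted p = 0.0183). The median of this list at 24 h of APAP was 0.13, beside 0.02 for all genes.

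Of 20 scaffolds, adaptors and activators, 1 rose at 2 h of APAP, 3 rose and 1 fell at 6 h, and 4 rose and 2 fell at 24 h, where the list's median was 0.06. The Gadd45 genes encode stress-induced proteins that bind and activate the Map3k MEKK4. Gadd45a rose by 0.80, 1.14 and 0.67 at 2, 6 and 24 h of APAP, while Map3k4, the gene of MEKK4, passed no test. Mean levels of Gadd45a at 2, 6 and 24 h were 9.79, 10.18 and 9.61 with APAP. They were 9.63, 9.49 and 9.15 with AMAP and 9.00, 9.04 and 8.94 in control cultures. Gadd45a passed in no comparison of AMAP with control cultures or of APAP with AMAP cultures. Gadd45b rose by 0.63 and 0.92 and Gadd45g by 0.53 and 0.72 at 6 and 24 h of APAP. The mean level of Gadd45g fell between 2 and 24 h from 8.89 to 8.45 with APAP. In control cultures it fell from 8.41 to 7.74 (-0.67, limma adjusted p = 0.00436). Mapk8ip3, a JNK scaffold, rose by 0.35 at 24 h of APAP. Sh3rf1, the gene of the JNK scaffold POSH, fell by 0.30 at 6 h and by 0.36 at 24 h of APAP, and by 0.35 at 6 h of AMAP (adjusted p = 0.0474), the only gene of this list to pass with AMAP against control cultures. Gadd45b (0.85) and Gadd45g (0.79) were higher and Mapkap1, the gene of a subunit of mTOR complex 2, lower (-0.33) with APAP than with AMAP at 24 h.

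Of 10 MAP kinase phosphatases, which switch MAP kinases off, none passed at 2 or 6 h of APAP, and 2 rose and 1 fell at 24 h, with a median of 0.12. Dusp1 rose by 0.64 (adjusted p = 0.0268), Dusp8 rose by 0.54 (adjusted p = 0.00272), and Dusp9 fell by 0.50 (adjusted p = 4.44e-04). The mean level of Dusp1 fell between 2 and 24 h, from 11.57 to 10.94 with APAP and from 10.82 to 10.30 in control cultures. None of the 10 passed with AMAP against control cultures. Dusp1 was higher with APAP than with AMAP by 0.85 at 2 h (adjusted p = 0.0403) and by 0.82 at 24 h, and Dusp8 by 0.62 at 24 h.

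Of 18 transcription factors phosphorylated by MAP kinases and their early targets, 3 rose at 2 h of APAP. Egr1 rose by 1.50 (adjusted p = 1.99e-06), Jun by 1.33 (adjusted p = 8.46e-04) and Fos by 0.81 (adjusted p = 3.27e-04), at a time when no member of the kinase family passed. At 6 h Jun rose by 1.27 and Elk3, an ETS factor, fell by 0.39. At 24 h Jun rose by 1.69 (adjusted p = 1.30e-05), Fos by 0.41 and Egr1 by 0.52, and Elk3 fell by 0.60. The mean level of Jun at 2, 6 and 24 h was 10.64, 10.41 and 10.47 with APAP and 9.31, 9.14 and 8.79 in control cultures. The median of the list at 24 h was 0.12. With AMAP, none passed against control cultures at 2 or 6 h, and Elk3 fell by 0.36 at 24 h (adjusted p = 0.0302). Jun was higher with APAP than with AMAP by 1.18, 1.13 and 1.43 at 2, 6 and 24 h, with Egr1 (1.06) and Fos (0.69) at 2 h and Fosl2 (0.35), Ets1 (0.47) and Junb (0.47) at 24 h.

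Markers of other cell types were read in the same fit. The mean of the 4 biliary markers was 7.93 to 8.36 on the APAP arrays and 7.82 to 8.46 on the AMAP arrays at 24 h, against 8.66 to 8.80 on the control arrays. The median difference of the 4 from control cultures was -0.51 with APAP and -0.65 with AMAP. Sox9 fell by 0.35 with APAP against control cultures (adjusted p = 0.0441), the only 1 of the 4 to pass there, and none passed with AMAP. Sox9 was also lower with APAP than with AMAP at 24 h (-0.47, adjusted p = 0.0107), and lower in control cultures at 24 h than at 2 h (-0.53, adjusted p = 0.0190). Of 6 fibroblast and stellate markers, only Vim passed at 24 h of APAP against control cultures. It fell by 0.24 (adjusted p = 0.0331), while the median difference of the 6 was -0.03. Of the 8 hepatocyte, 6 endothelial and 6 macrophage and leukocyte markers none passed at 24 h of APAP against control cultures. In such bulk RNA, fewer cells of a type and less RNA per cell cannot be told apart, and the part of these markers in the changes of Map2k6, Mapkapk3, Map3k5, Map3k1 and Map2k5 with APAP, of Mapk11 with AMAP, of the 6 members that differed between the isomers and of Map2k3 over time was not tested. APAP array 31 of 24 h lay farthest along the first principal component, which held 22.4% of the variance. Without it, all of the 5 members called for APAP against control cultures except Map2k5 (adjusted p = 0.0860) passed at 24 h.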

How the data were processed

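RNA from TAMH cells was hybridised to Affymetrix Mouse Gene 1.0 ST arrays, 27 in all, 3 in each of 9 groups of treatment and time. The deposited table holds 1 log2 value per probe set and array for 35557 probe sets. Per the submitters' processing notes the authors made it by RMA in Affymetrix Expression Console 1.1. The base was inferred from how far the values reach, and the build used for the arrays is not given in the sources used here. Scanner files and detection calls were not analysed here, so no probe set is called absent, and the number of arrays limits the precision.

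Values were used as deposited. The annotation named 21789 probe sets with 1 symbol and 1621 with several, which were left out. For the 999 genes with more than 1 probe set, the highest mean over all arrays was kept, giving 19938 genes. The symbols of all 41 members matched the reference by gene ID. A model of 9 group means over all 27 arrays was fitted with limma 3.58.1 in R 4.3.3 (18 residual and 7.3 prior degrees of freedom), and two-sided p-values were adjusted by the Benjamini-Hochberg method over all genes, with a threshold of 0.05. The step was tested on simulated data. Differences and their 95% intervals come from that fit.

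The members, the gene lists, the markers and the comparisons were chosen with earlier results of these data known. Named genes are all members that passed a treatment comparison, 19 core kinases of which 16 were measured, the members with the highest and lowest difference in each comparison, and up to 4 genes a list that passed. Replicate numbers paired the arrays in 5 of 9 comparisons, by correlated deviations above 0.1 in every pair, and 23 of 27 arrays correlated best with their own number. Alternatives were a replicate block, quantile normalization, centring, a filter on dim genes, another choice of probe set, a variance trend, array weights, the compared arrays alone, and leaving out each number or array. Promoter windows are from RefSeq on GRCm38.p6: 34 of 41 members had at least 1.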

Additional observations from a re-analysis of the deposited data

Results flagged for a closer look

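The difference of Map2k6 between APAP and control cultures was not the same at 24 h and at 2 h. The change, 24 h minus 2 h, was -0.68 on the log2 scale (limma adjusted p = 0.0325), with -0.95 at 24 h and -0.27 at 2 h. All 3 APAP arrays lay below all 3 control arrays at each of these times. The call was lost without any of 10 of the 12 arrays, and without each of the numbers 30, 31 and 32. Sox9 fell at 24 h too, and the mean of the 4 biliary markers was 7.93 to 8.36 on APAP arrays and 7.82 to 8.46 on AMAP arrays, against 8.66 to 8.80 on control arrays. Sox9 was also lower in control cultures at 24 h than at 2 h (-0.53, limma adjusted p = 0.0190). The part of these markers in this result was not tested. No other member met a criterion for a closer look. Groups of 3 arrays were too small for a check of single outlying arrays.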

How the results depend on the processing

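Of 96 alternative counts of members that passed, leave-outs aside, 84 were within 1.5 times of the reported count. These include counts of 0 beside a reported 0, as for APAP against control cultures at 2 h, which do not bear on the stability of a call. For APAP against control cultures, quantile normalization gave 4 members at 6 h, adding Map3k3 and Map3k14, and a fit of the compared arrays alone gave 1 at 6 h and 2 at 24 h. For AMAP against control cultures at 24 h, the replicate block, quantile normalization, the filter on dim genes and array weights each gave 2, adding Map4k1, and the compared arrays alone gave 0. For APAP against AMAP cultures, array weights gave 2 at 6 h, and the compared arrays alone gave 0 at 6 h and 3 at 24 h. For control cultures at 24 h against 2 h, array weights gave 3. For APAP cultures at 24 h against 2 h, quantile normalization gave 5 in place of 9. Quantile normalization also added Map2k4 for APAP against control cultures at 24 h. The replicate block, which pairs arrays by number, also added Map3k20 and Mapk15 for AMAP cultures at 24 h against 2 h (9 in place of 7). Apart from these and Map4k1, it changed no call of a member.

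Leaving out a number or an array gave 0 to 2 members for APAP against control at 6 h and 1 to 4 at 24 h, 0 to 1 for AMAP against control at 24 h, 0 to 1 for APAP against AMAP at 6 h and 2 to 5 at 24 h, 0 for control cultures over time, and 0 to 1 for the change of the APAP difference. It gave 1 to 8 for APAP cultures and 0 to 5 for AMAP cultures at 24 h against 2 h. Without each of the numbers 30, 31 and 32, the treatment calls of Map3k1, Map2k5, Mapk11 and Map3k8 were lost. The same held for the call of Map2k3 in control cultures. Fewer arrays in a fit leave fewer degrees of freedom, and otherwise the cause was not tested. Of 295 values of members that passed, 199 passed again, 96 kept their direction without passing and 0 reversed. Quantile normalization and centring moved the median of all genes by at most 0.03 and 0.06. The counts of all genes also moved: for APAP against control at 24 h, 449 genes passed without number 30 and 3043 with array weights, beside 1860.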
